A study of Mus musculus with 9 samples.

Results

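Mitochondrial ribosomal proteins are described here as the genes whose symbols begin with Mrpl or Mrps followed by a digit, across mouse bone marrow-derived macrophages. The rule found 78 genes among the 16200 in the tables, 49 named for the large subunit (Mrpl) and 29 for the small subunit (Mrps), and all 78 were among the 12587 genes tested. PolyA RNA was sequenced in 3 groups of 3 libraries. IL-27 (interleukin-27) cells had 100 ng/ml of the cytokine over 6 h, IL-4 (interleukin-4) cells had 20 ng/ml over 12 h, and the last group was left untreated. The cells were wild type in every group and had been grown from marrow for 6 days with supernatant of L929 cells, a fibroblast line that secretes macrophage growth factor. No strain or age is given. The cytokines differed in dose and time, and 1 treatment text is shared by all samples, so any IL-4 in the medium of the IL-27 group is not stated. Whether replicates were separate cultures or animals is not stated either, and p-values here cover only the variation among these libraries, which may be technical.

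The mitochondrial ribosome translates the few messages encoded by mitochondrial DNA, all of them for core subunits of the respiratory chain and ATP synthase. Its ribosomal RNAs come from mitochondrial DNA, but its proteins are encoded in the nucleus, made in the cytosol and imported. The small subunit decodes the message and the large subunit joins amino acids. Many of the proteins have counterparts in bacterial ribosomes, and others were added in the mitochondrial lineage. IL-4 is the classical inducer of alternative macrophage activation, a state known for reliance on mitochondrial respiration, and IL-27 is a cytokine of the IL-12 family. In the mammalian ribosome, Mrps30 and Mrps18a sit in the large subunit despite their names, and Mrps36 is a subunit of the oxoglutarate dehydrogenase complex.

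The libraries held 34577188 to 37951827 counts each, with 14001 to 14326 genes detected. Untreated replicate 2 and IL-4 replicate 1 stood apart: across 9553 genes, which are not independent replicates, their deviations from the means of their groups correlated at r = 0.900. The macrophage markers (8 of 8 above 1 CPM, the count scaled to a common library size) summed to 24360 to 26439 CPM with IL-27, 15847 to 19305 CPM with IL-4 and 23056 to 31706 CPM in untreated cells. All 6 fibroblast and stroma markers were above 1 CPM, and their sum was 1063 to 1333 CPM with IL-27, 511 to 718 CPM with IL-4 and 690 to 783 CPM in untreated cells. Endothelial markers (3 of 4 above 1 CPM) summed to 141 to 159 CPM, 155 to 273 CPM and 88.1 to 146 CPM in the same groups. Markers of T cells, erythroid cells, mast cells and dendritic cells were all under 1 CPM on average, B cell markers summed to at most 3.55 CPM and neutrophil and progenitor markers to at most 9.08 CPM, and no listed marker in the tables was at 0 in every library. Stromal markers thus moved with the groups, and their part in the results below was not tested. In bulk RNA, fewer cells of a type and less RNA per cell cannot be told apart.

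Per unit of length, the members spanned a 27.3-fold range of mean level over the 9 libraries, from 2.20 to 59.9 FPKM (a count scaled by library size and gene length), with a median of 14.8 FPKM. The median of all genes tested was 6.32 FPKM, and 64 of 78 members lay above it. The large-subunit genes had a median of 14.7 FPKM and the small-subunit genes one of 14.9 FPKM over these means. Taken within each of the 9 libraries, the large-subunit median was the higher, at 1.02 to 1.29 times the small-subunit one. The order thus depended on how the median was taken, and the difference was not tested. The highest levels belonged to Mrpl52 at 59.9 FPKM, Mrpl33 at 56.6 FPKM, Mrps21 at 52.9 FPKM and Mrpl12 at 51.3 FPKM. The lowest were Mrpl1 at 2.20 FPKM, Mrpl14 at 2.42 FPKM, Mrpl19 at 3.45 FPKM and Mrpl35 at 3.28 FPKM. These FPKM values divide by the authors' gene lengths, so a gene with a long annotated model is listed low.

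IL-4 raised a group of mitochondrial ribosomal protein genes of both subunits and lowered 1. At a Benjamini-Hochberg adjusted p under 0.05 (edgeR quasi-likelihood test over all genes tested), 24 of 78 members rose, 1 fell (Mrps6) and 53 did not pass. That is 30.8% of members higher, beside 12.9% of all genes tested, and 1.28% lower, beside 12.0% of all genes. The median log2 fold change of the members was 0.28, against -0.01 over all genes tested, and 70 of 78 members had values above 0. In 40 members every IL-4 library lay above every untreated library, and in 2 every one lay below (51.3% and 2.56% of members, against 17.8% and 18.2% of all genes tested). Leaving out untreated replicate 3 reduced the rises to 14, and leaving out untreated replicate 1 reduced them to 16. The share of all genes called in these fits is not given here. Without either of the libraries that stood apart there were 44 rises and 1 fall, when 24.3% and 22.6% of all genes passed, and all 25 earlier calls were among them.

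Among small-subunit genes, IL-4 gave the largest rise in Mrps28, a protein assigned as the counterpart of bacterial S1. It stood at 20.9, 16.5 and 16.5 CPM in the 3 IL-4 libraries and at 6.73, 8.04 and 6.78 CPM in untreated libraries. Every IL-4 library was above every untreated one, a 2.50-fold difference (log2 1.32 ± 0.14 SE, adjusted p = 0.00012). Mrps18b, one of the S18-type proteins of the small subunit, had 21.3, 16.5 and 18 CPM with IL-4 and 9.76, 8.89 and 8.20 CPM in untreated cells (log2 1.05 ± 0.13 SE, adjusted p = 0.000276). The lowest IL-4 library was again above the highest untreated one. Mrps10, whose bacterial counterpart lies in the head of the subunit, had 18, 19.2 and 17.7 CPM against 10.8, 11.4 and 8.96 CPM (log2 0.82 ± 0.13 SE, adjusted p = 0.00113).

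Other small-subunit genes rose with IL-4 by less. Mrps22, a protein found only in mitochondrial ribosomes, had 12.0, 11.6 and 12.9 CPM with IL-4 and 6.09, 7.59 and 7.98 CPM untreated (log2 0.75 ± 0.13 SE, adjusted p = 0.00232). Mrps27, a pentatricopeptide repeat protein, had 22.3, 21.1 and 19.9 CPM with IL-4 and 12.0, 13.0 and 13.6 CPM untreated (log2 0.71 ± 0.11 SE, adjusted p = 0.00125). In both genes the groups did not overlap. Mrps15 (log2 0.68 ± 0.10 SE, adjusted p = 0.000923), Mrps5 (0.62 ± 0.13, 0.00675) and Mrps25 (0.60 ± 0.12, 0.00476) also rose, the first 2 being bacterial-type proteins and Mrps25 specific to mitochondria. The last shares 3533 exon bases with Nr2c2 on the opposite strand in an older annotation, and the sources used here do not say whether counting used strand. Nr2c2 itself moved the other way with IL-4 (log2 -0.34 ± 0.11 SE, adjusted p = 0.0445).

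Mrps6 was the 1 member that fell with IL-4, and it fell with IL-27 too. It encodes the counterpart of a bacterial platform protein that pairs with S18. Its levels were 10.6, 13.0 and 10.4 CPM with IL-27, 12.2, 11.1 and 12.2 CPM with IL-4 and 17.2, 17.7 and 16.3 CPM in untreated cells. All 6 cytokine libraries lay below all 3 untreated ones, with log2 fold changes of -0.52 ± 0.12 SE for IL-4 (adjusted p = 0.0109) and -0.58 ± 0.12 SE for IL-27 (adjusted p = 0.00547). The gene shares 159 exon bases on the same strand with Slc5a3, a myo-inositol transporter gene, in the older annotation. Slc5a3 fell by more, with log2 fold changes of -1.90 ± 0.27 SE with IL-4 (adjusted p = 0.000679) and -1.71 ± 0.27 SE with IL-27 (adjusted p = 0.000992), so the Mrps6 values are uncertain where reads were shared. How the 2 genes' reads were divided was not tested.

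Among large-subunit genes the largest rise with IL-4 was in Mrpl42, a protein of the large subunit with no bacterial counterpart. Mrpl42 stood at 39.1, 34.5 and 35.1 CPM with IL-4 and at 22.4, 20.8 and 21.7 CPM untreated, with no overlap (log2 0.74 ± 0.10 SE, 1.67-fold, adjusted p = 0.000516). Mrpl12, the stalk protein that contacts translation factors, had 80.6, 57.6 and 58.1 CPM with IL-4 against 36.0, 50.7 and 35.7 CPM untreated. Its groups did not overlap either (log2 0.68 ± 0.17 SE, adjusted p = 0.0151), but the highest value of each group came from a library that stood apart. Leaving out untreated replicate 1 or 3 ended the Mrpl12 call, with adjusted p up to 0.0617. Mrpl35 rose with log2 0.46 ± 0.14 SE (adjusted p = 0.0345), a call lost on leaving out any untreated library, IL-4 replicate 2 or IL-27 replicate 1 (adjusted p up to 0.121). Mrpl11, at the base of the stalk, did not pass (log2 0.19 ± 0.12 SE, adjusted p = 0.273).

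**Figure D1:**
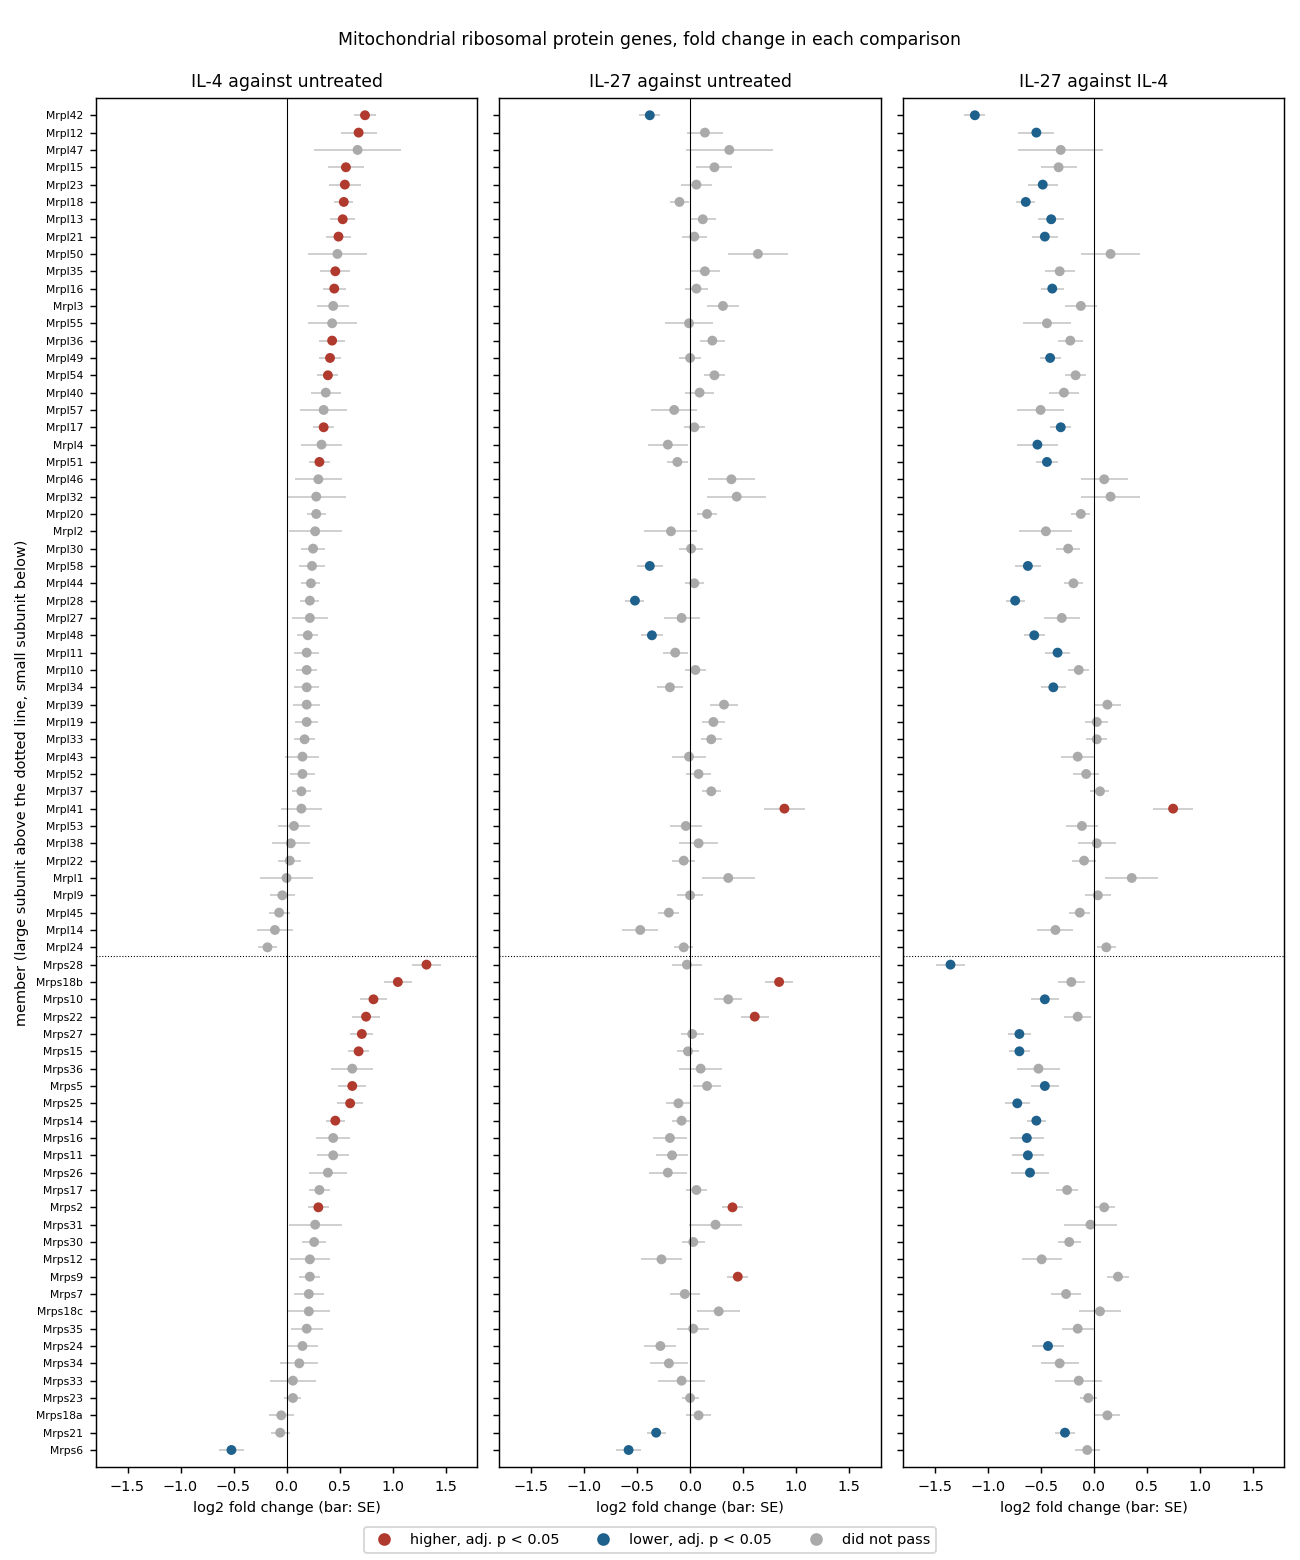
Log2 fold change of each of the 78 members (horizontal axis, bars are SE) in the 3 comparisons, with large-subunit genes above the dotted line and small-subunit genes below, each ordered by the IL-4 value. With IL-4, 24 points are red (higher, adjusted p under 0.05) and 1 is blue (lower); between IL-27 and IL-4, 28 are blue and 1 is red.

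IL-27 changed few mitochondrial ribosomal protein genes relative to untreated cells, and in both directions. Of 78 members, 5 rose, 6 fell and 67 did not pass, which is 6.41% higher and 7.69% lower, beside 14.0% higher and 15.1% lower among all genes tested. The members' median log2 fold change was 0.03 and that of all genes was 0.00. In 16 members every IL-27 library was above every untreated one and in 8 below, 20.5% and 10.3%, against 26.2% and 26.0% of all genes. The number of falls dropped to 2 without untreated replicate 1, untreated replicate 3 or IL-27 replicate 3, and to 3 without IL-27 replicate 1 or 2. The share of all genes called in these fits is not given here. Without both libraries that stood apart, 12 members rose and 8 fell, 15.4% and 10.3% of members, when 24.4% and 25.6% of all genes did.

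Mrpl41, a large-subunit protein specific to mitochondria, had the largest rise with IL-27. It stood at 29.2, 28.8 and 26.9 CPM with IL-27, 13.6, 16.3 and 20.6 CPM with IL-4 and 16.5, 11.5 and 17.8 CPM in untreated cells. The IL-27 libraries lay above all 6 others (log2 0.89 ± 0.19 SE against untreated, 1.85-fold, adjusted p = 0.0056), while the IL-4 and untreated libraries overlapped (log2 0.14 ± 0.19 SE, adjusted p = 0.632). It was the only member higher with IL-27 than with IL-4 (log2 0.75 ± 0.19 SE, adjusted p = 0.00962), and it was called in both comparisons in every alternative run. Mrps9, whose bacterial counterpart reaches the tRNA in the peptidyl site, had 27.7, 26.2 and 27.4 CPM with IL-27 and 21.1, 19.5 and 18.8 CPM untreated (log2 0.45 ± 0.10 SE, adjusted p = 0.00585).

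A group of 3 small-subunit genes, Mrps18b, Mrps22 and Mrps2, passed as higher with each cytokine, in comparisons that share the untreated libraries. The share of all genes tested that did so is not given here, so the overlap has no background. Mrps18b had 16.6, 16.1 and 15.5 CPM with IL-27 (log2 0.84 ± 0.13 SE against untreated, adjusted p = 0.000858). Mrps22 had 11.1, 11 and 10.9 CPM with IL-27 (log2 0.61 ± 0.13 SE, adjusted p = 0.00654). The IL-27 libraries overlapped the IL-4 ones in Mrps18b and lay just below them in Mrps22, and neither gene passed between the cytokines (log2 -0.21 ± 0.13 SE for Mrps18b and -0.15 ± 0.13 SE for Mrps22, IL-27 relative to IL-4). Mrps2, a bacterial-type protein, had 29.6, 26.3 and 26.1 CPM with IL-27, 24.7, 25.9 and 25.8 CPM with IL-4 and 21.7, 19.5 and 20.8 CPM in untreated cells. Its IL-27 rise (log2 0.40 ± 0.10 SE, adjusted p = 0.0103) was lost without IL-27 replicate 1 (adjusted p = 0.0527). Its IL-4 rise (log2 0.30 ± 0.10 SE, adjusted p = 0.0441) was lost on leaving out any 1 library other than IL-4 replicate 1 (adjusted p up to 0.112). Mrps18b shares 638 exon bases with an antisense gene model, Gm16279, in the older annotation.

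The 6 falls with IL-27 included 4 large-subunit genes. Mrpl28, a bacterial-type protein, had 23.8, 26.5 and 24.1 CPM with IL-27, 41.7, 40.1 and 42.4 CPM with IL-4 and 36.5, 36.8 and 33.1 CPM untreated. The 3 groups did not overlap, with IL-27 lowest (log2 -0.52 ± 0.09 SE against untreated, adjusted p = 0.00207). Mrpl58, the peptidyl-tRNA hydrolase that sits in the large subunit and releases stalled chains, had 10.9, 11.9 and 12.4 CPM with IL-27, 19.6, 17.6 and 16.9 CPM with IL-4 and 14.5, 17.0 and 14.2 CPM untreated. Its IL-27 fall (log2 -0.38 ± 0.12 SE, adjusted p = 0.0393) was lost on leaving out any 1 library other than IL-4 replicate 1 (adjusted p up to 0.137).

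Mrpl48, a protein of the central protuberance, had 15.7, 16.6 and 14.2 CPM with IL-27 and 19.7, 19.7 and 20.1 CPM untreated (log2 -0.36 ± 0.10 SE, adjusted p = 0.0242). The groups did not overlap, but the call was lost without untreated replicate 1 or 3 or IL-27 replicate 1 or 3 (adjusted p up to 0.0974). Mrpl48 shares 403 exon bases with Rab6a on the opposite strand in the older annotation, and Rab6a had log2 0.28 ± 0.14 SE (adjusted p = 0.165). Mrps21, a bacterial-type small-subunit protein, had 22.8, 23.7 and 23.7 CPM with IL-27 and 30.6, 27.9 and 29.4 CPM untreated (log2 -0.32 ± 0.09 SE, adjusted p = 0.0231). This call was lost without untreated replicate 1 or 3 or any 1 of the IL-27 libraries (adjusted p up to 0.0866).

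Mrpl42 was the 1 member called in opposite directions by the cytokines. With IL-27 it stood at 18, 16.5 and 15.5 CPM, below both the 34.5 to 39.1 CPM of IL-4 cells and the 20.8 to 22.4 CPM of untreated cells. The IL-27 fall (log2 -0.38 ± 0.10 SE, adjusted p = 0.019) was lost without untreated replicate 1 or 3 or IL-27 replicate 2 or 3 (adjusted p up to 0.0811). The contrast between the cytokines was log2 -1.12 ± 0.10 SE (2.17-fold lower with IL-27, adjusted p = 1.61e-05) and held in every alternative run.

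**Figure D2:**
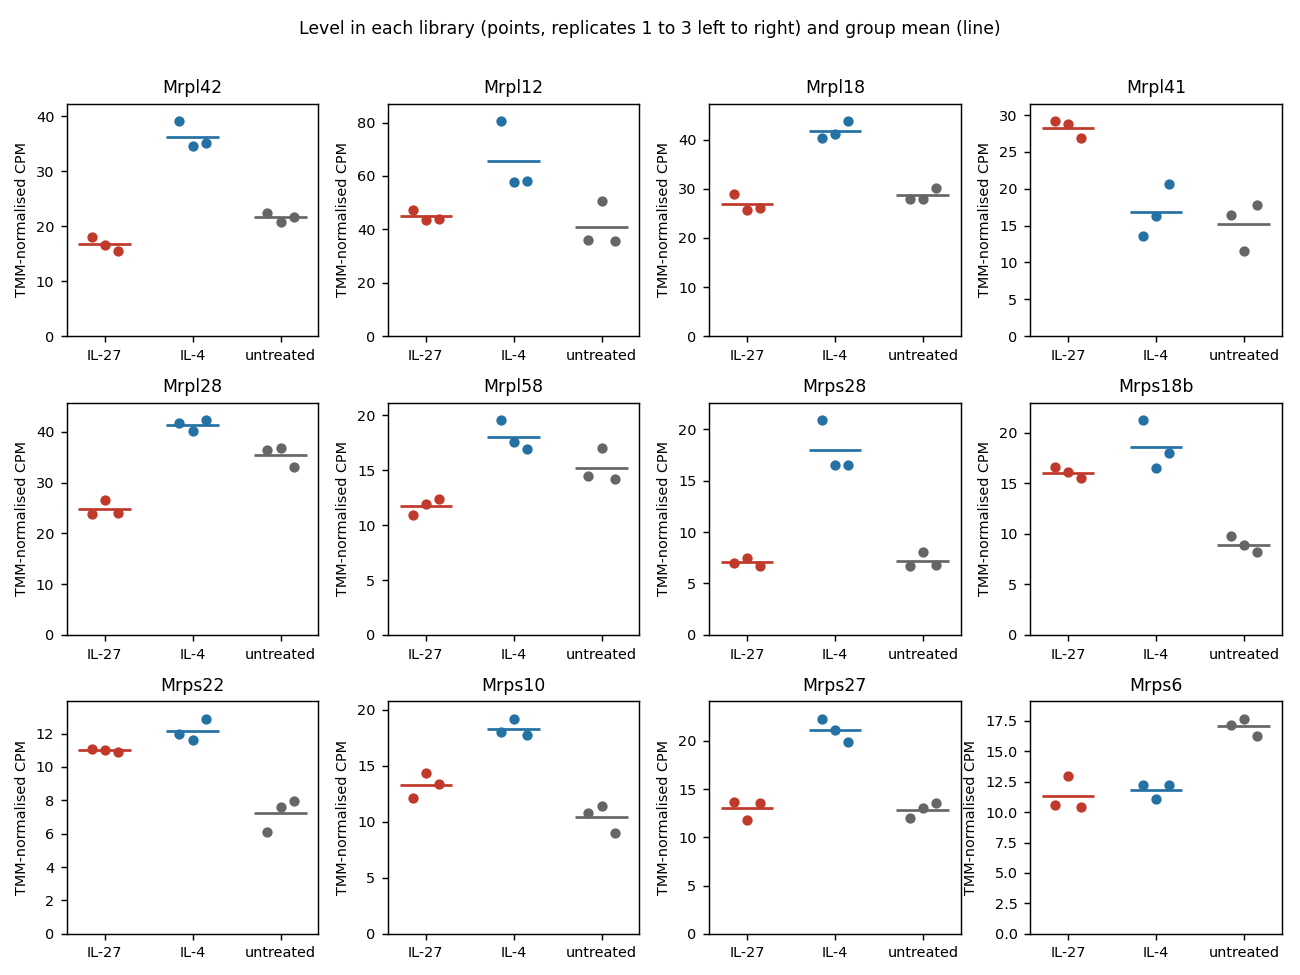
TMM-normalised CPM (vertical axis, from 0) of 12 members in the IL-27, IL-4 and untreated groups, with a point for each of the 3 libraries (replicates 1 to 3 from left to right in a group) and a line at the group mean. Mrpl42, Mrps28 and Mrps27 are high in IL-4 alone, Mrpl41 in IL-27 alone, Mrps18b and Mrps22 in both, and Mrps6 is low in both.

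Set directly against IL-4, IL-27 cells had lower levels of many mitochondrial ribosomal protein genes. Of 78 members, 28 were lower (35.9%, beside 21.0% of all genes tested), 1 was higher (1.28%, beside 18.8%) and 49 did not pass. The median log2 fold change was -0.27 for the members and 0.01 for all genes. In 46 members every IL-27 library lay below every IL-4 library, and in 3 above (59.0% and 3.85%, against 28.7% and 28.0% of all genes). The count of lower members was 14 without IL-27 replicate 1, and 17 without IL-27 replicate 2 or 3. The share of all genes called in these fits is not given here. Without both libraries that stood apart the count of lower members was 40, when 30.6% of all genes passed as lower, and the earlier 28 were among them.

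The largest differences between IL-27 and IL-4 were again in Mrps28 and Mrpl42, in a comparison that shares the IL-4 libraries with the one above. Mrps28 had 6.95, 7.48 and 6.73 CPM with IL-27, close to the untreated levels (log2 -0.03 ± 0.14 SE, adjusted p = 0.908) and 2.54-fold below IL-4 (log2 -1.35 ± 0.14 SE, adjusted p = 4.23e-05). Mrps25 (log2 -0.72 ± 0.12 SE, adjusted p = 0.000939), Mrps15 (-0.70 ± 0.10, 0.000356) and Mrps27 (-0.70 ± 0.11, 0.000722) followed among small-subunit genes. Among large-subunit genes after Mrpl42, Mrpl28 had -0.74 ± 0.09 SE (adjusted p = 0.000128). Mrpl18, a protein of the central protuberance, had 28.9, 25.6 and 26.1 CPM with IL-27 and 40.4, 41.2 and 43.8 CPM with IL-4 (log2 -0.64 ± 0.09 SE, adjusted p = 0.000361), and Mrpl58 had -0.62 ± 0.12 SE (adjusted p = 0.00232). Mrps10 lay between: 12.1, 14.3 and 13.4 CPM with IL-27 were above every untreated library without passing (log2 0.36 ± 0.13 SE, adjusted p = 0.0593), and below IL-4 (log2 -0.46 ± 0.13 SE, adjusted p = 0.0143). The Mrps10 difference from IL-4 was lost without IL-27 replicate 1 (adjusted p = 0.0638).

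A further 7 members were lower in IL-27 than in IL-4 although neither cytokine passed against untreated cells, among them Mrpl11. The share of all genes tested with this pattern is not given here. Mrpl11 had 16, 17.8 and 17.6 CPM with IL-27 and 22.1, 23.5 and 19.2 CPM with IL-4 (log2 -0.34 ± 0.12 SE, adjusted p = 0.045), a call that ended on leaving out any 1 of the IL-27 libraries, IL-4 replicate 1 or 2, or untreated replicate 3 (adjusted p up to 0.149). Mrpl12 was also lower with IL-27, at 47.4, 43.5 and 43.9 CPM (log2 -0.54 ± 0.17 SE, adjusted p = 0.0274), until IL-4 replicate 1 or any 1 of the IL-27 libraries was left out (adjusted p up to 0.0866). Mrps5 was lower by log2 -0.46 ± 0.13 SE (adjusted p = 0.0186), a call lost without IL-4 replicate 2 or 3 or IL-27 replicate 2 or 3 (adjusted p up to 0.0692). No comparison called the other 40 members (28 large, 12 small subunit), also given without a share over all genes. They include Mrps12, the decoding-centre protein (log2 0.22 ± 0.19 SE with IL-4, -0.27 ± 0.19 SE with IL-27), and Mrps7 of the head (0.21 ± 0.14 and -0.05 ± 0.14). Mrpl33 (0.17 ± 0.10 and 0.20 ± 0.10) and Mrpl52 (0.15 ± 0.12 and 0.08 ± 0.12), both among the highest by FPKM, did not pass either, nor did Mrpl1, Mrpl14 and Mrpl19, among the lowest.

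Large and small subunit are set side by side here, and the difference between them was not tested. With IL-4, 14 of 49 large-subunit genes rose and 0 fell (28.6% and 0%, median log2 0.27), and 10 of 29 small-subunit genes rose and 1 fell (34.5% and 3.45%, median 0.30). Of all genes tested, 12.9% rose and 12.0% fell. With IL-27, 1 large-subunit gene rose and 4 fell (2.04% and 8.16%, median 0.04), and 4 small-subunit genes rose and 2 fell (13.8% and 6.9%, median 0.00). Neither subunit was above the 14.0% and 15.1% of all genes. Between IL-27 and IL-4, 1 large-subunit gene was higher and 16 were lower (2.04% and 32.7%, median -0.28), and 0 small-subunit genes were higher and 12 lower (0% and 41.4%, median -0.27). All genes gave 18.8% and 21.0%. The 3 genes raised by both cytokines all have small-subunit names, a count with no background, so no subunit difference is read from it. The small subunit also held the widest spread of IL-4 values, from log2 -0.52 to 1.32, against -0.18 to 0.74 in the large subunit. With Mrps30 and Mrps18a placed in the large subunit and Mrps36 in neither, the medians were 0.26, 0.04 and -0.24 for 51 large-subunit genes and 0.31, -0.03 and -0.29 for 26 small-subunit genes, in the same order of comparisons.

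Summed over genes, the large-subunit level was 1103 ± 13.0 CPM with IL-27, 1313 ± 52.5 CPM with IL-4 and 1079 ± 33.3 CPM in untreated cells (SD, n = 3 each). The small-subunit sum was 546.3 ± 8.04 CPM, 679.9 ± 27 CPM and 541.9 ± 11.6 CPM in the same groups. Both sums were thus highest with IL-4 in every library, and the members made up 0.162% of counts with IL-27, 0.204% with IL-4 and 0.161% in untreated cells. The ratio of the summed FPKM of large to small subunit was 1.74, 1.72 and 1.70 in the IL-27 libraries, 1.66, 1.63 and 1.67 in the IL-4 libraries and 1.62, 1.68 and 1.63 in the untreated libraries. The 3 IL-27 libraries lay above the other 6, which overlapped, and the differences were small; as a sum over chosen members this ratio was given no test.

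**Figure D3:**
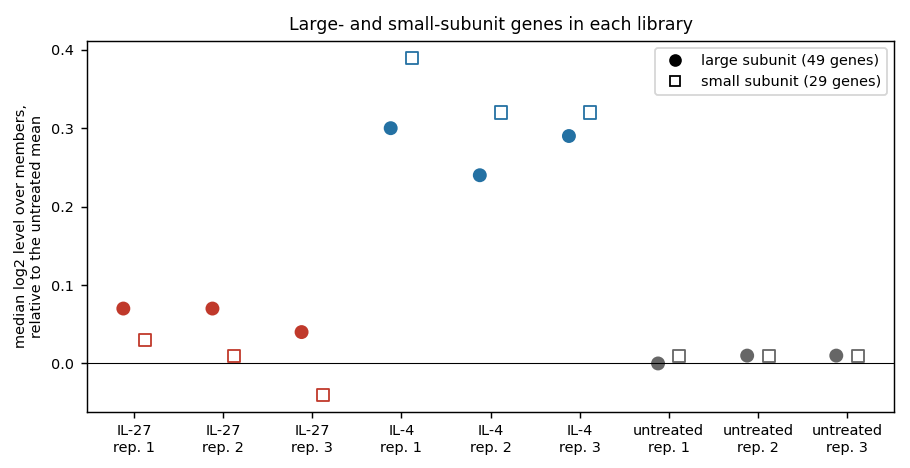
Median log2 level over the 49 large-subunit genes (filled circles) and the 29 small-subunit genes (open squares) in each of the 9 libraries, relative to each gene's mean in untreated cells. The IL-4 libraries sit at 0.24 to 0.30 for the large and 0.32 to 0.39 for the small subunit, and the IL-27 libraries at 0.04 to 0.07 and -0.04 to 0.03; untreated libraries lie near 0 by construction.

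The members were also counted by descent. Of the large-subunit genes with a bacterial counterpart, 10 of 30 rose with IL-4 (median log2 0.28), and of those found only in mitochondria 4 of 19 did (median 0.23). Among small-subunit genes, 7 of 18 of bacterial type rose and 1 fell (median 0.31), and 3 of 10 mitochondrial ones rose (median 0.26). In that order 33.3%, 21.1%, 38.9% and 30% rose, beside 12.9% of all genes tested. No test was made between these classes. The S18-type proteins differed from each other: Mrps18b rose with both cytokines, while Mrps18a, which sits in the large subunit, had log2 -0.05 ± 0.12 SE with IL-4 (adjusted p = 0.792) and Mrps18c 0.21 ± 0.20 SE (adjusted p = 0.48). With IL-27 the values were 0.08 ± 0.12 SE for Mrps18a and 0.27 ± 0.20 SE for Mrps18c, and neither passed. Mrps30 did not pass with IL-4 (log2 0.26 ± 0.11 SE, adjusted p = 0.122). Mrps36, which is no ribosomal subunit, had 15, 15.1 and 15 CPM with IL-27, 14.6, 24.0 and 25.9 CPM with IL-4 and 14.7, 11.5 and 15.9 CPM untreated. It just missed the threshold with IL-4 (log2 0.62 ± 0.20 SE, adjusted p = 0.0508), and without both libraries that stood apart it passed (log2 0.71 ± 0.11 SE, adjusted p = 4.33e-06). That fit left out the IL-4 library at 14.6 CPM, which lay within the untreated range. The libraries left out were picked from these same data, so the smaller spread is no separate support for a rise.

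The 2 libraries that stood apart also deviated among the members. Over the 78 members, the deviation from the group mean correlated with transcript GC content at r = 0.50 in IL-4 replicate 1 and r = 0.51 in untreated replicate 2. The other libraries of these groups gave r of the opposite sign (-0.53 and -0.29 for IL-4 replicates 2 and 3, -0.48 and -0.40 for untreated replicates 1 and 3), as deviations within a group sum to 0, and the IL-27 libraries gave -0.12 to 0.14. The points of a correlation share a library, so the values describe those libraries. The 26 members of lowest GC content had a median deviation of log2 -0.08 in IL-4 replicate 1 and -0.14 in untreated replicate 2, and the 26 of highest GC content 0.20 and 0.19. Mrpl47 lay lowest, at -0.70 and -1.08, and Mrpl2 was high, at 0.57 and 0.44; both were picked with their values in view. The deviations widened the spread of such genes: Mrpl47 had log2 0.67 ± 0.41 SE with IL-4 over all libraries and 0.58 ± 0.20 SE (adjusted p = 0.0205) without these 2. Mrpl47 had the lowest mean CPM of the members, 4.65. In the older annotation it shares 452 exon bases with Actl6a and 158 with Ndufb5, on the opposite strand. With IL-4, Actl6a rose (log2 0.62 ± 0.12 SE, adjusted p = 0.00506) and Ndufb5 did not pass (0.19 ± 0.13). The Mrpl47 values are uncertain where reads were shared.

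**Figure D4:**
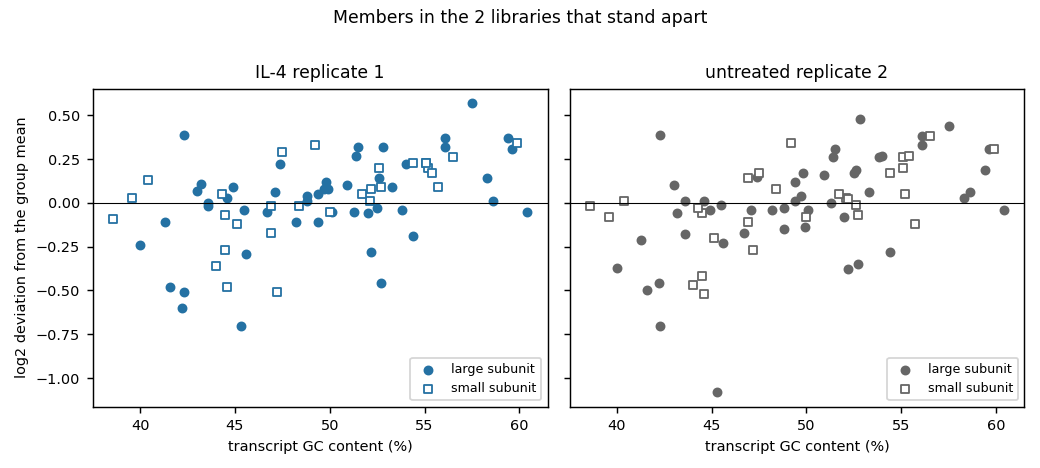
Log2 deviation of each member from the mean of its group (vertical axis) against its transcript GC content in percent (horizontal axis) in IL-4 replicate 1 and untreated replicate 2, with filled circles for the large and open squares for the small subunit. In both libraries the members of low GC content tend to lie below 0 and those of high GC content above it (r = 0.50 and 0.51 over 78 genes).

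The upstream sequences of 5 members are shown because they are the largest rise of the large subunit with each cytokine (Mrpl42, Mrpl41) and the genes raised by both (Mrps18b, Mrps2, Mrps22). Each is the 250 bases before the RefSeq gene start in GRCm38.p6, 5′ to 3′ on the gene's strand, with motif matches in capitals.
Mrpl42 (chr10:95501950-95502199, minus strand): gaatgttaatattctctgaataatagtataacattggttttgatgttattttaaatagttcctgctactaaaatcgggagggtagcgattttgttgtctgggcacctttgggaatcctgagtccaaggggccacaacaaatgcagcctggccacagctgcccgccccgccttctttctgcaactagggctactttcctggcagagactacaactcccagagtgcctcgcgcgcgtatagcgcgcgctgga
Mrpl41 (chr2:24975099-24975348, minus strand): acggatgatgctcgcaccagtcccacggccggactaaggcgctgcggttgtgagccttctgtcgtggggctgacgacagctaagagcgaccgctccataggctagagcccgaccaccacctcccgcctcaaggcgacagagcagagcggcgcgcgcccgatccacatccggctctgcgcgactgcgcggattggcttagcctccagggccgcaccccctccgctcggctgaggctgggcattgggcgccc
Mrps18b (chr17:35916441-35916690, minus strand): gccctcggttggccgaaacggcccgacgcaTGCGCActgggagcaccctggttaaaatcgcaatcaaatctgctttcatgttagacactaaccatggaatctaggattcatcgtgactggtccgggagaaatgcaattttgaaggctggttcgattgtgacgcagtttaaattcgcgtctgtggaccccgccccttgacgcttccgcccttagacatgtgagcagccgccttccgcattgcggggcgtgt
Mrps2 (chr2:28467816-28468065, plus strand): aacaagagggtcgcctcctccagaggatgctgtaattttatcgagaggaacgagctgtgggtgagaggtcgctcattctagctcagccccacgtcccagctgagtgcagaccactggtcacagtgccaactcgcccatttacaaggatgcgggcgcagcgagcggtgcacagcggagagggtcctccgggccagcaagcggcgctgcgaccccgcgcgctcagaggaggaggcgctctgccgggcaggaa
Mrps22 (chr9:98601680-98601929, minus strand): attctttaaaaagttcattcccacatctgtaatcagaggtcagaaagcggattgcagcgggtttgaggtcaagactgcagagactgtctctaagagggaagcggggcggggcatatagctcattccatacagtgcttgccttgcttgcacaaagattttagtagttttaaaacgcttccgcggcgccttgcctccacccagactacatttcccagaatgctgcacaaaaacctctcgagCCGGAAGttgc
Motifs of factors known to act on nuclear genes for mitochondria were searched on both strands: TGCGCA (half-site of NRF1), CCGGAAG (ETS factors, which include GABP), AAGATGG (YY1 core) and the E-box CACGTG (bound by Myc with Max), none of which contains another. Mrps18b holds TGCGCA and Mrps22 holds CCGGAAG, while the windows of Mrpl42, Mrpl41 and Mrps2 hold none of the 4.

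RefSeq windows were matched for 69 of the 78 members, 75 windows in all. Mrps28, the member with the largest rise with IL-4, was not matched, so no window is shown for it. TGCGCA was present in 25.3% of members' windows, against 11.1% of windows of the genes tested and 6.43% of all promoter windows. CCGGAAG was in 24.0%, against 13.2% and 6.91%. The E-box was in 9.33%, against 8.20% and 6.02%, and AAGATGG in 8.0%, against 4.24% and 4.49%. Within the family, members raised by IL-4 held TGCGCA in 15% of 20 windows and the others in 29.1% of 55, and held CCGGAAG in 25% and 23.6%. The E-box was in 5.0% and 10.9% of the same windows, and AAGATGG in 10.0% and 7.27%. A match is a run of letters in this window and was not tied to binding by any measurement here.

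Many members stand back to back with another gene. In the older annotation (GENCODE M21), 33 of 78 members (42.3%) had a protein-coding neighbour starting on the opposite strand within 1000 bases, against 1990 of 12229 coding genes tested (16.3%). Some pairs differed in their values, and the pairs given were picked with those values in view. Ncapd2, a condensin gene whose start lies 100 bases from that of Mrpl51, rose with IL-4 (log2 0.90 ± 0.16 SE, adjusted p = 0.00232) and fell with IL-27 (log2 -2.23 ± 0.17 SE, adjusted p = 9.26e-06). Mrpl51 had log2 0.31 ± 0.10 SE with IL-4 (adjusted p = 0.04), a call lost on leaving out any 1 library other than IL-27 replicate 2 (adjusted p up to 0.0963), and -0.12 ± 0.10 SE with IL-27 (adjusted p = 0.375). Eme1, a DNA repair gene 197 bases from Mrpl27, likewise rose with IL-4 (log2 1.35 ± 0.21 SE, adjusted p = 0.00114) and fell with IL-27 (log2 -1.47 ± 0.23 SE, adjusted p = 0.000877). Mrpl27 had 0.22 ± 0.17 SE and -0.08 ± 0.17 SE, and neither passed; the pair share 75 exon bases on opposite strands. The small-subunit gene Mrps11 and the large-subunit gene Mrpl46 face each other at 412 bases, and neither passed against untreated cells.

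The rest of the mitochondrial translation apparatus was counted from lists of known genes. The 5 mitoribosomal proteins with other symbols did not pass with either cytokine against untreated cells, and Gadd45gip1 was lower with IL-27 than with IL-4 (log2 -0.36 ± 0.11 SE, adjusted p = 0.0241). Of 15 translation factors, 4 rose (26.7%) and 0 fell with IL-4, and 2 rose (13.3%) and 0 fell with IL-27. Lower with IL-27 than with IL-4 were 2 (13.3%). Among all genes tested, 12.9% rose with IL-4, 14.0% rose with IL-27, and 21.0% were lower with IL-27 than with IL-4. Gfm1, the elongation factor that moves the ribosome along the message, had 44.6, 43.4 and 42.7 CPM with IL-27, 50.5, 53.3 and 54.1 CPM with IL-4 and 36.3, 31.1 and 34.5 CPM in untreated cells. Its 3 groups did not overlap (log2 0.36 ± 0.09 SE with IL-27, adjusted p = 0.0136, and 0.63 ± 0.09 SE with IL-4, adjusted p = 0.000719). Lrpprc, which stabilises mitochondrial messages, rose with both (log2 0.44 ± 0.09 SE with IL-27 and 0.40 ± 0.09 SE with IL-4, adjusted p = 0.00381 and 0.00831), and its partner Slirp rose with IL-4 (log2 0.45 ± 0.12 SE, adjusted p = 0.0176).

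Mitochondrial tRNA synthetases, which charge the tRNAs used by the mitochondrial ribosome, were counted over 20 genes. With IL-4, 6 rose (30%, beside 12.9% of all genes tested) and 0 fell. With IL-27, 1 rose (Nars2, log2 0.87 ± 0.19 SE, adjusted p = 0.00769) and 1 fell (Cars2, -0.49 ± 0.13 SE, adjusted p = 0.0201). These are 5% each, beside 14.0% and 15.1% of all genes. Lower with IL-27 than with IL-4 were 9 (45%, beside 21.0%). Of 30 assembly factors and rRNA-modifying enzymes, 4 rose with IL-4 (13.3%, beside 12.9% of all genes tested) and 0 fell. With IL-27, 2 of them rose (6.67%) and 1 fell (3.33%), both shares below the 14.0% and 15.1% of all genes. In that list IL-27 lowered Rbfa, a small-subunit assembly factor (log2 -0.72 ± 0.09 SE, adjusted p = 0.000263), and raised Afg3l2, a subunit of the inner-membrane protease that processes Mrpl32 (log2 0.55 ± 0.08 SE, adjusted p = 0.000765), and Fastkd2 (log2 0.71 ± 0.15 SE, adjusted p = 0.00585). Rbfa had 26.1, 25.5 and 25.4 CPM with IL-27, 41.8, 40.4 and 42.9 CPM with IL-4 and 45.1, 38.6 and 43.6 CPM untreated. Mitochondrial transcription and genome upkeep gave 2 rises of 19 with IL-4 (Top1mt and Supv3l1) and 1 with IL-27 (Top1mt). That is 10.5% and 5.26%, beside 12.9% and 14.0% of all genes tested.

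Of 12 tested factors linked to mitochondrial gene expression, 2 rose and 1 fell with IL-4 (16.7% and 8.33%, beside 12.9% and 12.0% of all genes tested). Their log2 values with IL-4 ran from -1.59 to 2.05, with a median of 0.12. With IL-27, 6 rose and 0 fell (50% and 0%, beside 14.0% and 15.1%). Myc, which binds the E-box with Max, had 19.7, 20.2 and 22.4 CPM with IL-27, 84.3, 69.1 and 66.0 CPM with IL-4 and 17.4, 20.2 and 15.5 CPM in untreated cells (log2 2.05 ± 0.14 SE with IL-4, adjusted p = 6.40e-06). The coactivator Ppargc1b had 11.7, 12.7 and 12.9 CPM with IL-27, 21.7, 19.4 and 24.5 CPM with IL-4 and 7.31, 7.05 and 6.47 CPM untreated, above untreated in every library of both cytokines. Gabpb1, a subunit of GABP, rose with IL-27 (log2 1.09 ± 0.17 SE, adjusted p = 0.00114). These levels stand beside the members' values, and their part in them was not tested.

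Related large assemblies were counted in the same way. With IL-4, 29 of 82 nuclear respiratory chain genes rose and 1 fell (35.4% and 1.22%, median log2 0.36), and 4 of 81 cytosolic ribosomal protein genes rose and 0 fell (4.94%, median 0.14). With IL-27, 1 of 82 and 1 of 81 rose, and 4 and 2 fell, with medians of -0.19 and -0.13, where the mitochondrial ribosomal proteins had 0.03. Between IL-27 and IL-4, 55 of 82 respiratory chain genes (67.1%) and 25 of 81 cytosolic ribosomal protein genes (30.9%) were lower, beside 28 of the 78 members (35.9%). Over all genes tested, 12.9% rose and 12.0% fell with IL-4, and 14.0% rose and 15.1% fell with IL-27. Between IL-27 and IL-4, 21.0% were lower. Differences between these lists were not tested.

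**Figure D5:**
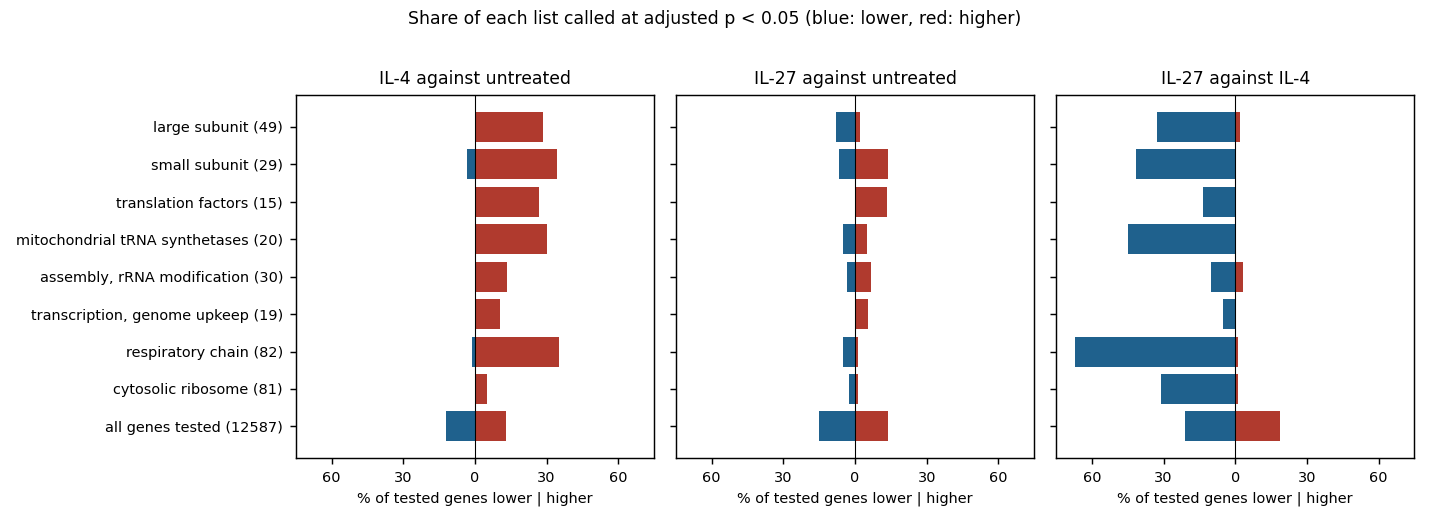
Share of tested genes in percent that were lower (blue, to the left) or higher (red, to the right) at adjusted p under 0.05 in the 3 comparisons, for the large and small subunit, other lists of mitochondrial gene expression, the respiratory chain, the cytosolic ribosome and all genes tested. Large and small subunit had 28.6% and 34.5% higher with IL-4, and 32.7% and 41.4% lower with IL-27 than with IL-4.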

How the data were processed

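PolyA RNA of 9 macrophage libraries was analysed from 2 deposited tables. The counts deposited by the authors are whole numbers per gene; the FPKM values deposited by the authors hold those counts divided by gene length and library total. fastp, HISAT2, HTSeq and GRCm39 are named, without versions, in the submitters' processing notes. The sources used here do not state the counting strand or the annotation. Counts were fitted in R 4.3.3 with edgeR 4.0.16 (quasi-likelihood, TMM factors 0.918 to 1.06, all 9 libraries, group as the term, filterByExpr minimum count 10), with Benjamini-Hochberg adjustment over 12587 genes and a threshold of 0.05. Common dispersion was 0.0272 (coefficient of variation 0.165). Levels are TMM-normalised CPM; the SE divides the size of the log2 fold change by the root of the F statistic. Log2 deviations used a pseudocount of 0.05 CPM. No test was made of lists or sums.

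Named members are the 6 largest called rises and falls of each comparison, the 4 highest and lowest by FPKM, a fixed panel, and members called in opposite directions; in other lists, up to 4 called genes. Mrpl2, Mrpl18, Mrpl27, Mrpl46, Mrpl47, Mrpl51, Mrps11 and the neighbouring genes, the classes by descent, and the promoters of Mrps2 and Mrps22 were chosen after values were seen. Members and lists were chosen with earlier results of these data known. GC content, neighbours and promoters come from GRCm38 annotation and are used for names and relations, with promoter positions in that build. Alternatives were RLE factors, DESeq2 1.42.0, other filters, fewer groups, a replicate block, each library left out and both libraries that stood apart left out. The libraries that stood apart were picked from their deviations in these data, and without them fewer libraries remain in the IL-4 and untreated groups. The procedure was also run on simulated counts drawn independently for each library, with the outcome not given here. Those counts lacked the shift shared by the libraries that stood apart, so the run does not cover it.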

Additional observations from a re-analysis of the deposited data

Results flagged for a closer look

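Mrpl42 was set apart because it was called in opposite directions by the cytokines. The IL-27 effect minus the IL-4 effect was log2 -1.12 ± 0.10 SE (edgeR adjusted p = 1.61e-05), with log2 -0.38 for IL-27 and 0.74 for IL-4, each against untreated. By that difference alone Mrps28 stood further out (log2 -1.35 ± 0.14 SE, edgeR adjusted p = 4.23e-05). The IL-27 fall of Mrpl42 was lost without untreated replicate 1 or 3 or IL-27 replicate 2 or 3 (adjusted p up to 0.0811). All 3 IL-27 libraries lay below, and all 3 IL-4 libraries above, every untreated library. The cytokines were given at different doses and times.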

How the results depend on the processing

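No member changed direction under RLE factors or DESeq2. Leaving out each library in turn gave 14 to 26 rises with IL-4, 4 to 6 rises and 2 to 7 falls with IL-27, and 14 to 32 members lower with IL-27 than with IL-4; of 24, 5, 6 and 28 calls, 13, 4, 2 and 12 were kept in all 16 alternatives. Subunit medians (log2) over these fits were 0.24 to 0.29 (large) and 0.29 to 0.36 (small) with IL-4, -0.01 to 0.08 and -0.02 to 0.01 with IL-27, and -0.28 to -0.22 and -0.33 to -0.27 between IL-27 and IL-4. Without both libraries that stood apart, 44 rose with IL-4, 12 rose with IL-27, 2 were higher and 40 lower with IL-27 than with IL-4, and the large-subunit medians were 0.08 with IL-27 and -0.23 between the cytokines. DESeq2 gave 2 members higher with IL-27 than with IL-4. With subunits by the assembled ribosome, the small-subunit median with IL-27 was -0.03 and the large-subunit median between the cytokines -0.24. The cause of these shifts was not tested.

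Same-numbered libraries of IL-4 and untreated cells had deviations correlated at -0.775, -0.797 and 0.666. The 2 libraries that stood apart carry different numbers and weigh on these values, so they cannot show whether the numbers pair the libraries. Same-numbered IL-27 and untreated libraries gave 0.00716, 0.0613 and 0.0494, and IL-27 and IL-4 libraries 0.03, -0.00551 and 0.081. With the replicate block, 17 members rose and 1 fell with IL-4, 5 rose and 3 fell with IL-27, and 1 was higher and 21 lower with IL-27 than with IL-4. The share of all genes called with the block is not given here.

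Values near 0 that did not pass changed sign. Over the fits that left out a library, log2 values with IL-4 ran from -0.21 to 0.20 for Mrpl1 (0.00 with only the 2 groups), -0.31 to 0.02 for Mrpl14, -0.03 to 0.27 for Mrpl41 and -0.16 to 0.00 for Mrps18a. With IL-27 they ran from -0.01 to 0.18 for Mrpl52, -0.09 to 0.03 for Mrps15, -0.03 to 0.08 for Mrps27, -0.07 to 0.06 for Mrps28, -0.03 to 0.07 for Mrps30, -0.03 to 0.20 for Mrps36 and -0.18 to 0.09 for Mrps7. Between IL-27 and IL-4 they ran from -0.04 to 0.08 for Mrpl19, -0.13 to 0.00 for Mrpl52 and -0.07 to 0.17 for Mrps18c. Without both libraries that stood apart, Mrps28 was 0.06, Mrps36 -0.03 and Mrps7 0.09 with IL-27, and Mrpl33 was 0.00 and Mrps18c -0.07 between the cytokines. Only 3 libraries a group limit how small a difference could be called.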
